A study of Mus musculus with 6 samples.

Results

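The genes described here are the cytosolic ribosomal protein genes, measured in mouse eosinophils that received IL-33, IL-4 or no cytokine. They were chosen by name alone: symbols of the form Rpl or Rps followed by a digit, together with Rplp0, Rplp1, Rplp2 and Rpsa, leaving out the Rps6k kinases, names with -ps and names that end in l after the number. This gave 82 of 22548 symbols, carried by 93 of 28702 transcripts, and left out 17 symbols of the same stem. Of the 82 genes, 46 code for proteins of the large subunit and 31 for proteins of the small subunit. The other 5 matched the name rule only: Rpl7l1, Rpl22l1 and Rpl36al are near copies of Rpl7, Rpl22 and Rpl36a, Rps4y2 is a copy of Rps4x, and Rps19bp1 codes for a protein that binds Rps19.

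Ribosomal proteins are made in equal amounts and assembled on ribosomal RNA in the nucleolus, so their mRNAs are among the most abundant of most cells. Most of these mRNAs begin with a run of pyrimidines, the 5' terminal oligopyrimidine (5'TOP) tract, through which the mTOR pathway and the RNA-binding protein Larp1 control their translation. Several of the proteins have roles outside the ribosome: Rpl5 and Rpl11 bind Mdm2 and stabilise p53, and Rps3 binds the NF-kB subunit RelA. Mature eosinophils hold stored granule proteins and transcribe new cytokine genes after activation.

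Each of 6 groups had 1 library of total RNA, and all cells were eosinophils cultured out of marrow of wild-type mice, strain BALB/c, aged 4 to 8 weeks. Culture lasted 14 days. For the first 4 days it contained SCF and FLT3-ligand (100 ng/ml of each), and after that IL-5 (10 ng/ml). The groups were IL-33 for 4 h, IL-4 for 4 h and untreated cells of 4 h, then IL-33 for 1 h, IL-4 for 1 h and untreated cells of 1 h, with each cytokine at 10 ng/ml. IL-33 activates NF-kB through its receptor ST2, IL-4 activates STAT6, and the series compared the responses to both. The untreated cells carried no cytokine other than the IL-5 medium that all groups shared. No group had a replicate, so no difference below has been set against a spread between samples, and no p-value is given.

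Values are FPKM, fragments normalised for the length of the transcript and the size of the library, so levels of different genes may be set side by side. A log2 change is log2((first FPKM + 1)/(second FPKM + 1)), taken within the deposited table that holds both libraries. It understates the change of low genes. A gene was compared where it had at least 1 FPKM in either library, and was called higher or lower by the rule of size at a log2 change of at least 1 in size. Rps4y2 was under 1 FPKM in all libraries, which left 81 of the 82 genes in each comparison. Levels in the 6 libraries are on the scale of the IL-4 table of the same time. Values of 1 h and 4 h were not put on a common scale, so small differences between the times may be differences of scale.

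The 30 bases around the pyrimidine tract at the mRNA start are shown for 6 genes that recur in the results, from RefSeq (GRCm38.p6), 5' to 3' on the strand of the gene, with the tract in capitals. Each window opens 8 bases before its tract, so its first letters lie upstream of the annotated start: 13 bases in Rps9, 10 in Rps24, 8 in Rpl38, 7 in Rpl18, 5 in Rpl22l1 and 2 in Rpl39. Rps9 and Rpl38 are among the most abundant members, Rpl39, Rpl18 and Rpl22l1 among those lowest with IL-33 at 4 h, and Rps24 is one of the few that were not lower there.
Rps9: cgccttgtCTCTCTTTgtctcgggcctgag
Rpl38: gcctcgttCTTTCCCCgttctcttcggttc
Rpl39: tctagcgaCTTCTTCTaatcgcgttcttcc
Rpl18: gcaggccgCTCTTTCCCCgcccactccggc
Rpl22l1: agcccgttCTCTTCCCacggctgcagctca
Rps24: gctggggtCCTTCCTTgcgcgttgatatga
These windows lie at chr7:3704028-3704057, chr11:114668572-114668601, chrX:37085195-37085224 (minus strand), chr7:45718064-45718093, chr3:28805503-28805532 and chr14:24490668-24490697, in the order printed. A tract was taken as a C followed by at least 6 further C or T on the strand of the gene, with its first base no more than 5 bases before and 30 bases after the annotated start. Of the 62 members with a promoter in the table (2 through an older symbol), 38 held such a tract, 61.3%, against 19.0% of 27025 genes. The 7 letters CCGGAAG, the core that ETS factors bind, stood on either strand of the window of 250 bases before to 50 after the start in 25 members, 40.3%, against 9.93% of all genes. Both were found in 18 members, and they overlapped in 2 of these.

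The ribosomal protein mRNAs were at the top of the eosinophil transcriptome. The median of the members' means over the 6 libraries was 822 FPKM, against 12.7 FPKM for the 10711 genes with a mean of at least 1 FPKM. Of the members, 37 had a mean of at least 1000 FPKM and 70 of at least 200 FPKM. They made up 33 of the 100 genes and 55 of the 200 genes with the highest means. The median was 764 FPKM for the large subunit and 1086 FPKM for the small subunit.

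Rpl41, the smallest protein of the ribosome, had the highest mean of the levels listed under the members' own symbols. Its level was 2756 FPKM in IL-33 4 h, 3125 in IL-4 4 h and 3133 in untreated 4 h cells, and 2974 in IL-33 1 h, 2912 in IL-4 1 h and 2977 in untreated 1 h cells. Rps9, a core protein of the small subunit, had 2553 FPKM in IL-33 4 h, 2842 in IL-4 4 h, 2846 in untreated 4 h, 3092 in IL-33 1 h, 2966 in IL-4 1 h and 3010.1 in untreated 1 h cells. In both genes the IL-33 4 h library was the lowest of the 6.

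The stalk proteins Rplp0 and Rplp1 recruit the elongation factors to the ribosome. Rplp0 had 2168 FPKM in IL-33 4 h, 2281 in IL-4 4 h, 2269 in untreated 4 h, 2564 in IL-33 1 h, 2399.8 in IL-4 1 h and 2487 in untreated 1 h cells. Rplp1 had 2159 FPKM in IL-33 4 h, 2353.5 in IL-4 4 h, 2397 in untreated 4 h, 2411 in IL-33 1 h, 2268 in IL-4 1 h and 2357 in untreated 1 h cells. All 3 libraries of 4 h were below all 3 of 1 h for Rplp0, as they were for Rps9, whereas the times overlapped for Rplp1 and Rpl41. The values of 1 h and 4 h come from separate tables, so no direction over time is read from this.

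Rps29, a zinc-binding protein of the small subunit, was among the steadiest members, with 2407 FPKM in IL-33 4 h, 2518 in IL-4 4 h, 2484 in untreated 4 h, 2495 in IL-33 1 h, 2417 in IL-4 1 h and 2509 in untreated 1 h cells. Rpl38, which in the mouse embryo is needed for the translation of Hox mRNAs, had 1949 FPKM in IL-33 4 h, 2163 in IL-4 4 h, 2188 in untreated 4 h, 2173 in IL-33 1 h, 2244 in IL-4 1 h and 2140.1 in untreated 1 h cells. Also among the highest 10 by mean were Rps28 (1677 to 1834 FPKM), Rps12 (1549.5 to 1871 FPKM) and Rpl10 (1506 to 1752 FPKM). By their own symbols, the 6 highest members were the same 6 genes in every library: Rpl41, Rps9, Rps29, Rplp0, Rplp1 and Rpl38. The sum of all transcripts at the Rps27 locus was higher than any of these, with a mean of 3414 FPKM against 2979 for Rpl41.

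**Figure D1:**
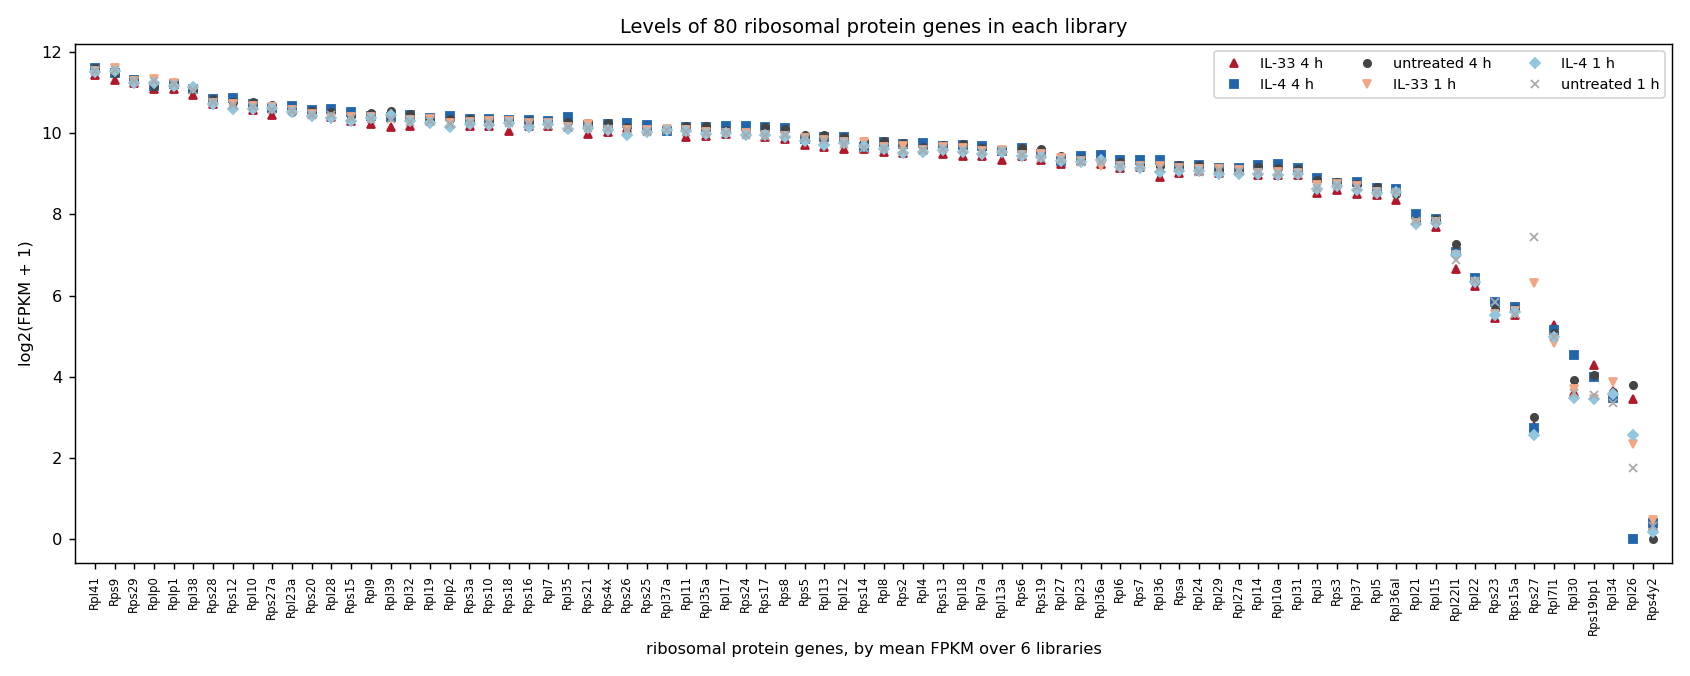
Level of 80 of the 82 genes in each of the 6 libraries, as log2(FPKM + 1), with genes ordered by mean FPKM from left to right and 1 symbol per library. For the genes with a mean of 200 FPKM or more the 6 symbols nearly coincide, and at the right end Rps27 and Rpl26 are spread widely between libraries.

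The members varied little between libraries, over values of 1 h and 4 h that were not put on a common scale. The highest of the 6 values divided by the lowest had a median of 1.17 over the 80 members without a 0, and it was under 1.5 in 75 of them. Over the 72 members with a mean of at least 50 FPKM, the median was 1.16 and 71 members, 98.6%, were under 1.5. Among the 1838 other genes with a mean of at least 50 FPKM, the median was 1.33 and 67.1% were under 1.5. The narrowest range belonged to Rpl37a, at 1.04. The 1 member of the 72 over 1.5 was Rpl22l1, at 1.52.

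At the low end, 12 members had a mean under 200 FPKM, and most of these are proteins of every ribosome. Among the lowest were Rps4y2 (0.22 FPKM), Rpl26 (5.70), Rpl34 (11.1), Rps19bp1 (13.3) and Rpl30 (13.6), given as means over 6 libraries. Rps27, a zinc-binding protein of the small subunit, averaged 45.9 FPKM, and Rps23, a protein of the decoding centre, averaged 49.4 FPKM. Rps27 had 5.91 FPKM in IL-33 4 h, 5.70 in IL-4 4 h, 7.01 in untreated 4 h, 78.0 in IL-33 1 h, 4.94 in IL-4 1 h and 174 FPKM in untreated 1 h cells. Rpl26, which lies near the exit of the peptide tunnel, had 9.95 FPKM in IL-33 4 h, was listed at 0 in IL-4 4 h, and had 12.9 in untreated 4 h, 4.11 in IL-33 1 h, 4.87 in IL-4 1 h and 2.37 FPKM in untreated 1 h cells. Rps27 was high in the untreated and IL-33 libraries of 1 h only, and Rpl26 was highest in the untreated and IL-33 libraries of 4 h.

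At the loci of 6 of these members, another transcript with a different symbol held nearly all of the FPKM, and 5 of these loci are described here. The tables (mm9) place Gm15772 at the Rpl26 locus, Gm12191 at Rpl30, Rpl34-ps1 at Rpl34, Gm15450 at Rps23 and Gm9846 at Rps27. RefSeq lists Gm15450 (now Rps23-ps1) as a pseudogene, Gm15772 and Gm12191 as transcribed pseudogenes, and Rpl34-ps1 and Gm9846 (now Rps27rt) as protein-coding. The share of the locus's FPKM under the member's own symbol was 0.628% for Rpl26, 1.08% for Rpl30, 0.625% for Rpl34, 5.29% for Rps23 and 1.34% for Rps27.

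The locus sums were high and steady. At Rps27 (chr3:90016589-90017570) the sum was 3361 FPKM in IL-33 4 h, 3369 in IL-4 4 h, 3403 in untreated 4 h, 3608 in IL-33 1 h, 3369.6 in IL-4 1 h and 3375 in untreated 1 h cells. At Rpl26 (chr11:68715068-68718036) it was 883 FPKM in IL-33 4 h, 971 in IL-4 4 h, 882 in untreated 4 h, 918 in IL-33 1 h, 904 in IL-4 1 h and 892 in untreated 1 h cells. The highest value was 1.07 times the lowest at Rps27 and 1.10 times at Rpl26, and the ratio lay between 1.06 and 1.10 at all 6 loci. Mean locus sums were 1249.5 FPKM at Rpl30 (chr15:34370261-34373031), 1782 at Rpl34 (chr3:130429749-130433247) and 933 at Rps23 (chr13:91062727-91064337). With these sums in place of the members' own values, 76 of the 82 genes had a mean of at least 200 FPKM.

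**Figure D2:**
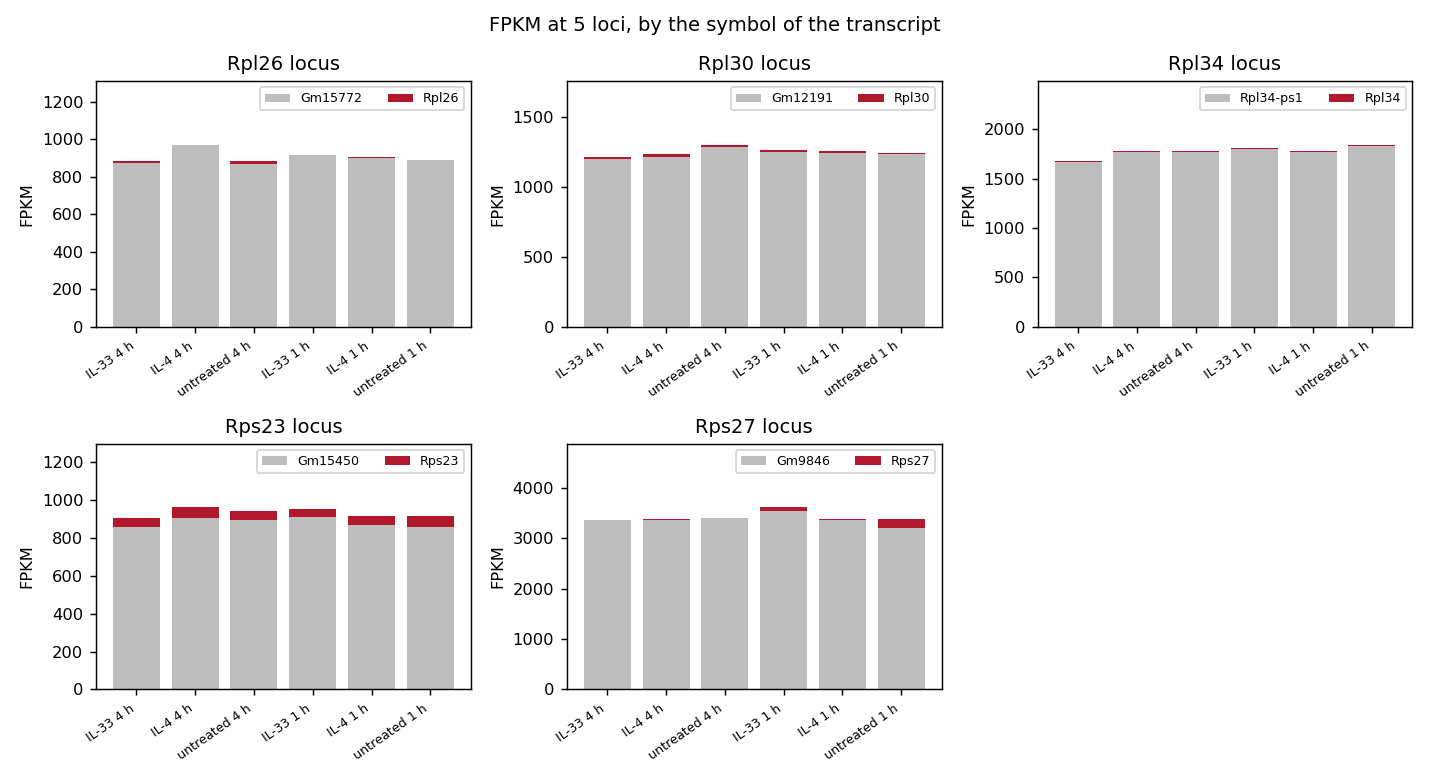
FPKM at the loci of Rpl26, Rpl30, Rpl34, Rps23 and Rps27 in each library, split into the FPKM listed under the member's symbol (red) and under the other symbol at the locus (grey). Bars start at 0, and at each locus the total differs little between the 6 libraries (1.06 to 1.10 times) while the red part is small.

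The Rps27 mRNA and its copy Rps27rt, known from RefSeq on another chromosome of GRCm38.p6, are shown because most short stretches of the Rps27 mRNA also occur in the copy. Each window runs from 10 bases before the annotated start to 20 bases into the mRNA. The first letters differ, and capitals mark the longest run that both windows hold, 19 of 30 bases.
Rps27: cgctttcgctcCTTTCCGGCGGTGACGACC
Rps27rt: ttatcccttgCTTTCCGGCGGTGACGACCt
The windows lie on the minus strand at chr3:90213629-90213658 for Rps27 and chr9:114982720-114982749 for Rps27rt. Of the 296 windows of 50 bases in the annotated Rps27 mRNA, 292 also occurred in Rps27rt, 98.6%. The coding transcript of Rps27 was listed at 73.8 FPKM in IL-33 1 h and 168 FPKM in untreated 1 h cells and at 0 in the other 4 libraries. Of the 1156 transcripts that reached 100 FPKM in some library and were not small RNAs, this was the only one listed at 0 in another. Over all 82 members, a median of 54.1% of such windows occurred in another annotated gene, and 46 members shared at least 50% of theirs. These other genes include some that overlap the member's own locus, such as Wdr38 at Rpl35.

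The ribosomal protein genes together held 8.77% of total FPKM in IL-33 4 h, 10.7% in IL-4 4 h and 10.8% in untreated 4 h cells. They held 9.55% in IL-33 1 h, 10.1% in IL-4 1 h and 10.1% in untreated 1 h cells. The IL-33 4 h library had the lowest share of the 6 and the IL-33 1 h library the next lowest. Both subunits showed this order: the large subunit held 4.77% in IL-33 4 h and 5.91% in untreated 4 h cells, and the small subunit 3.94% in IL-33 4 h and 4.81% in untreated 4 h cells. The large-to-small ratio stayed between 1.21 and 1.23 in all libraries. A share depends on all other transcripts too. Total FPKM was 804390 in IL-33 4 h and 728873 in untreated 4 h cells, and 796563 in IL-33 1 h and 739248 in untreated 1 h cells. The members' own sum was 70558 FPKM in IL-33 4 h and 78694 in untreated 4 h cells. At 1 h it was 76098 FPKM in IL-33 and 74957 in untreated cells, so at 1 h the share was lower with IL-33 while the sum was higher. Prg2, the major basic protein of the granules, alone held 5.49% of total FPKM in IL-33 4 h and 6.48% in untreated 4 h cells.

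**Figure D3:**
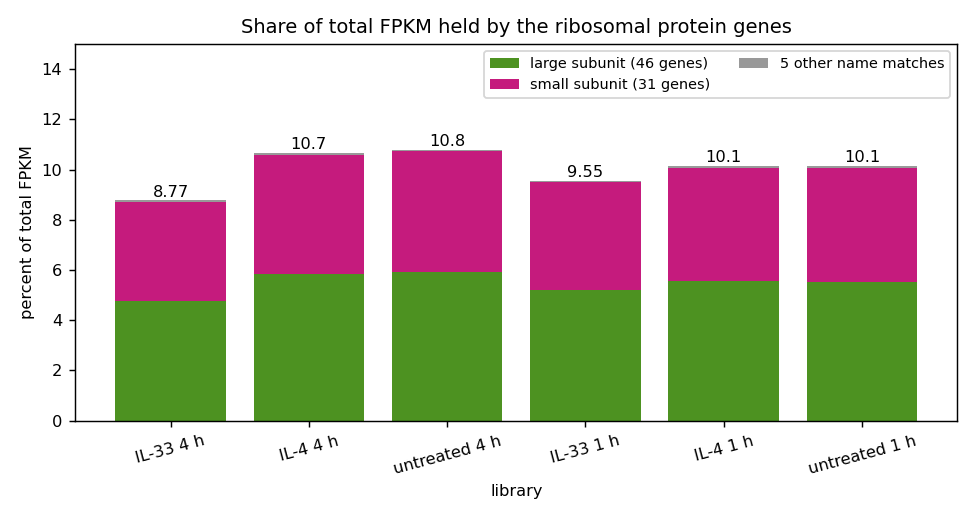
Percent of total FPKM held by the ribosomal protein genes in each library, with the large subunit, the small subunit and the 5 other name matches stacked from 0. The IL-33 4 h bar is the lowest at 8.77% and the untreated 4 h bar the highest at 10.8%.

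After 4 h of IL-33 the ribosomal protein mRNAs were lower as a group by a small amount. Of 81 members, 75 were below the untreated 4 h library and 6 above it, a share below of 92.6%, beside 53.5% of all 10813 genes compared. The median log2 change was -0.18 for the members, -0.03 for all genes compared and -0.01 for the other genes with at least 50 FPKM in untreated cells. By the rule of size no member was higher and none lower, beside 4.14% of all genes higher and 1.39% lower. At a size of 0.5 log2, 1 member was lower, beside 10.2% of all genes. The large subunit (median -0.17, 43 of 46 below 0) and the small subunit (median -0.18, 30 of 31 below 0) moved alike.

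Rpl22l1, the near copy of Rpl22 and the member that passed the size of 0.5, had 100.4 FPKM in IL-33 4 h, 134 in IL-4 4 h, 152 in untreated 4 h, 127 in IL-33 1 h, 127 in IL-4 1 h and 116 in untreated 1 h cells. Its log2 change with IL-33 at 4 h was -0.59. Rpl22 itself had 74.1 FPKM in IL-33 4 h and 80.0 in untreated 4 h cells, a change of -0.11. The IL-33 4 h library was the lowest and the untreated 4 h library the highest of the 6 for Rpl22l1.

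Rpl39, a small protein of the peptide exit tunnel, had 1137 FPKM in IL-33 4 h, 1346 in IL-4 4 h, 1502 in untreated 4 h, 1313 in IL-33 1 h, 1398 in IL-4 1 h and 1293 in untreated 1 h cells, and its change was -0.40. Rpl3, which lies next to the peptidyl transferase centre, had 370.1 FPKM in IL-33 4 h, 475 in IL-4 4 h, 458 in untreated 4 h, 422 in IL-33 1 h, 395 in IL-4 1 h and 398 in untreated 1 h cells, a change of -0.31. Rpl32 of the large subunit had 1147 FPKM in IL-33 4 h, 1386 in IL-4 4 h, 1418 in untreated 4 h, 1270.0 in IL-33 1 h, 1263 in IL-4 1 h and 1238 in untreated 1 h cells, also -0.31. In these 3 genes the IL-33 4 h library lay below each of the other 5. Rpl26 was also among the 5 lowest, at -0.35, and its locus sum changed by 0.00.

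The members farthest above 0 among those of at least 5 FPKM were 2 that are not parts of the ribosome. Rps19bp1, whose product also binds the deacetylase SIRT1, had 18.7 FPKM in IL-33 4 h, 15.02 in IL-4 4 h, 15.4 in untreated 4 h, 10.0 in IL-33 1 h, 9.87 in IL-4 1 h and 10.8 in untreated 1 h cells, with a change of 0.26. Rpl7l1 had 37.7 FPKM in IL-33 4 h, 34.2 in IL-4 4 h, 33.03 in untreated 4 h, 27.3 in IL-33 1 h, 30.6 in IL-4 1 h and 30.4 in untreated 1 h cells, with a change of 0.18. Both were highest in IL-33 4 h cells. Rpl23a (0.07), Rps24 (0.04) and Rpl34 (0.02) came next, and the locus sum of Rpl34 changed by -0.09.

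By role, in genes picked here after their values were seen, the stalk proteins changed by -0.07 (Rplp0), -0.15 (Rplp1) and -0.12 (Rplp2) with IL-33 at 4 h. Among the proteins that bind Mdm2, the change was -0.19 for Rpl5, -0.25 for Rpl11 and -0.03 for Rpl23. Rpl18, a protein of the large subunit, changed by -0.30. Rps6, the target of the S6 kinases, changed by -0.19, and Rps3, the partner of RelA, by -0.21. Rps27a, which is made as a fusion with ubiquitin, changed by -0.23. By the tract in the promoter window, the median was -0.18 over 38 members with a tract and -0.18 over 24 without one in this window. It was -0.15 over the 19 compared members without a promoter in the table. The tract was read near annotated starts, which may differ from the starts used in these cells. This split therefore cannot tell 5'TOP mRNAs from others, and nothing about the tract is concluded from it.

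The IL-33 4 h library stood apart in other measures, and their part in this result was not tested. Its depth, read from the commonest step between low values, was 1.89 times that of its control, against 0.973 to 1.24 times in the other treated libraries. All 8 monocyte and macrophage markers were above 1 FPKM in every library, and their sum was 1211 FPKM in IL-33 4 h and 657 in untreated 4 h cells (657 to 919 FPKM in the other 5 libraries). Of the 8, 4 were higher in IL-33 4 h than in untreated 4 h cells, namely Emr1 (552 and 291 FPKM), Csf1r (229 and 97.8), Cd14 (218 and 47.0) and Mrc1 (11.4 and 5.12). The other 4, Cd68, Ms4a7, C1qa and C1qb, were lower. The 9 neutrophil markers summed to 6397 FPKM in IL-33 4 h and 8192 in untreated 4 h cells (7079 to 8192 in the other 5), with 8 of the 9 lower, and the 10 eosinophil markers to 62798 FPKM in IL-33 4 h and 67048 in untreated 4 h cells (67048 to 74076 in the other 5), with 9 of the 10 lower. Sums were 169 to 230 FPKM for the 7 mast cell and basophil markers, 12.9 to 24.03 for the 7 lymphoid and 3.29 to 9.12 for the 7 erythroid markers. Among these lists, Cpa3 was at 79.6 to 100.9 FPKM, Mcpt8 at 58.5 to 91.9, Kit, Ms4a2 and Fcer1a at 4.79 to 16.9 and Cd3g of T cells at 5.69 to 14.9, whereas Mcpt4 and Tpsb2 of mast cells and Cd3e of T cells were at most 0.168 FPKM. In bulk RNA, fewer cells of a type and less RNA per cell cannot be told apart. Against the untreated library of 1 h in place of 4 h, the median of the members with IL-33 at 4 h was -0.07.

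**Figure D4:**
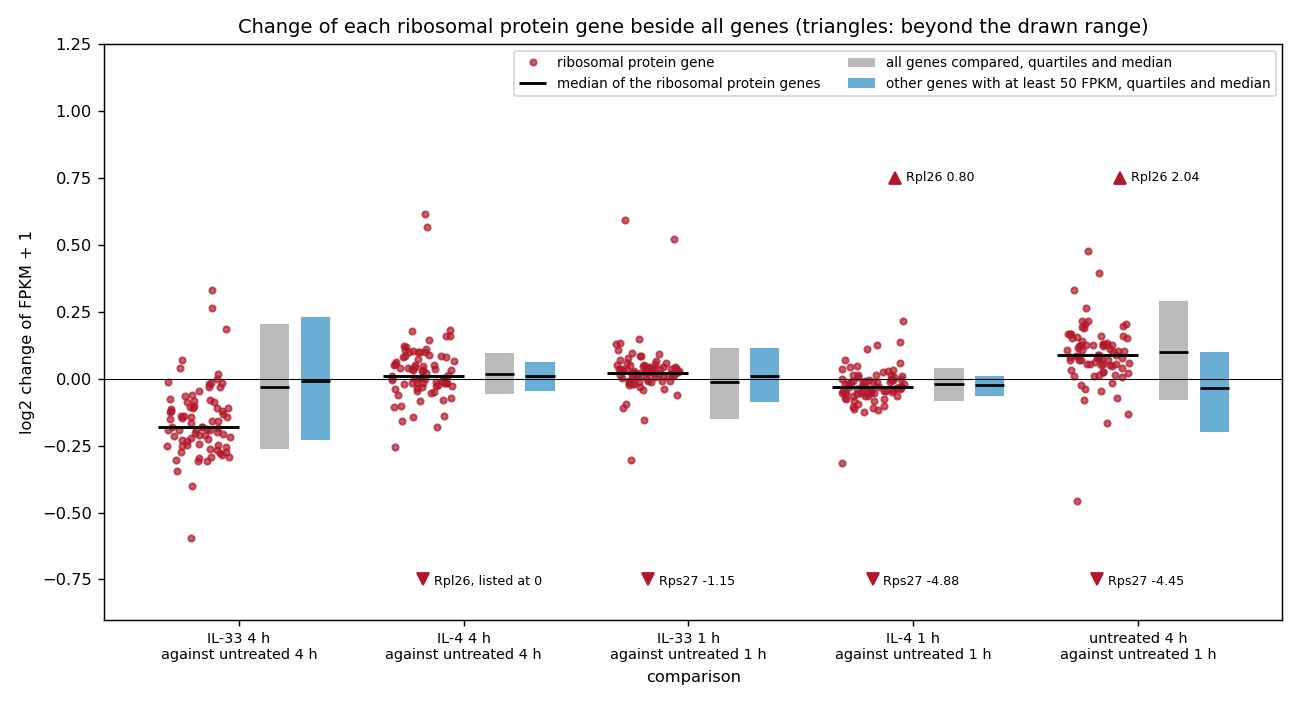
Log2 change of each of 81 ribosomal protein genes in the 5 comparisons (red points, black line at their median), beside the quartiles and median of all genes compared (grey) and of other genes with at least 50 FPKM (blue). With IL-33 at 4 h the points lie mostly below 0 with a median of -0.18, and in the other comparisons they lie close to 0, apart from Rps27 and Rpl26, drawn as triangles at the edge.

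After 4 h of IL-4 the ribosomal protein mRNAs stayed near the untreated level, with 47 members above and 34 below it (43.5% of all genes were below) and a median log2 change of 0.01, beside 0.02 for all genes compared. By the rule of size 0 members were higher, beside 0.646% of all genes, and 1 was lower, beside 0.35%. The 1 member was Rpl26, listed at 0 in IL-4 4 h cells, and its locus sum changed by 0.14. The next lowest members of at least 5 FPKM were Rps27 (-0.26), Rpl22l1 (-0.18) and Rpl39 (-0.16). Rpl30, which binds its own mRNA in yeast, had 22.4 FPKM in IL-4 4 h and 14.2 in untreated 4 h cells, a change of 0.62, while its locus sum changed by -0.08. Rps23 and Rps24 (0.18 each), Rpl23a (0.16) and Rpl21 (0.16) completed the 5 highest of at least 5 FPKM. The locus sums of Rps23 and Rps27 changed by 0.03 and -0.01. Rps24, mutated in a human anaemia of failed red cell production, had 1042 FPKM in IL-33 4 h, 1151 in IL-4 4 h, 1014 in untreated 4 h, 1029 in IL-33 1 h, 995 in IL-4 1 h and 998 in untreated 1 h cells.

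The difference between the cytokines at 4 h was taken as the IL-33 change minus the IL-4 change, which share the untreated library. It was below 0 in 75 of 81 members, beside 58.1% of all genes, with a median of -0.18 for the members and -0.06 for all genes. Higher by at least 1 log2 was 1 member, beside 3.06% of all genes, and lower none, beside 1.04%. That member was Rpl26, and its value rests on the 0 in IL-4 4 h cells.

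After 1 h of IL-33 the members lay slightly above the untreated library, with 61 above and 20 below (52.3% of all genes were below) and a median of 0.02, beside -0.01 for all genes and 0.01 for the other genes of at least 50 FPKM. By the rule of size no member was higher, beside 2.36% of all genes, and 1 was lower, beside 0.668%. This was Rps27, at -1.15, and its locus sum changed by 0.10. Among members of at least 5 FPKM, the highest changes were those of Rpl34 (0.52, on 13.7 FPKM in IL-33 1 h and 9.23 in untreated 1 h cells), Rps14 (0.15), Rps2 (0.13), Rpl22l1 (0.13) and Rpl30 (0.11), and the lowest after Rps27 were Rps23 (-0.30), Rpl7l1 (-0.15), Rpl36a (-0.11) and Rps19bp1 (-0.09). The locus sums of Rpl34, Rpl30 and Rps23 changed by -0.03, 0.02 and 0.06.

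After 1 h of IL-4, 20 members lay above and 61 below the untreated library (59.8% of all genes were below), and the median of -0.03 was that of the other genes of at least 50 FPKM (-0.03), with -0.02 for all genes. By the rule of size 0 members were higher, beside 0.47% of all genes, and 1 was lower, beside 0.357%. This was again Rps27, at 4.94 FPKM in IL-4 1 h and 174 in untreated 1 h cells (-4.88), with a locus sum that changed by -0.00. Lowest after it were Rps23 (-0.31), Rps26 (-0.12), Rpl30 (-0.12) and Rps19bp1 (-0.11). The highest of at least 5 FPKM were Rpl34 (0.22), Rpl22l1 (0.14), Rpl39 (0.11), Rpl38 (0.07) and Rps15a (0.06). The locus sums of Rps23, Rpl30 and Rpl34 changed by -0.00, 0.01 and -0.05.

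At 1 h the IL-33 change minus the IL-4 change was above 0 in 72 members and below 0 in 9 (48.2% of all genes were below), with a median of 0.04, against 0.01 for all genes and 0.04 for all genes of at least 50 FPKM. A difference of at least 1 log2 was found in 1 member above 0, beside 2.04% of all genes, and in none below, beside 0.467%. The member was Rps27. With loci joined, no member passed the rule of size in any of the 5 comparisons.

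In untreated cells of 4 h, 71 members were above and 10 below the untreated cells of 1 h (35.4% of all genes were below), with a median of 0.09, close to that of all genes (0.10), while the other genes of at least 50 FPKM had a median of -0.04. These libraries come from different tables, and centring on the median of all genes brings the members' median to -0.01, so no direction is read from it. By the rule of size 1 member was higher (Rpl26, 2.04), beside 0.887% of all genes, and 1 was lower (Rps27, -4.45), beside 1.56%. Their locus sums changed by -0.02 and 0.01. Among members of at least 5 FPKM, next came Rps19bp1 (0.48), Rpl22l1 (0.39), Rpl30 (0.33) and Rpl34 (0.27) above 0, and Rps23 (-0.17), Rplp0 (-0.13) and Rps9 (-0.08) below it. The locus sums of Rpl30, Rpl34 and Rps23 changed by 0.07, -0.05 and 0.04.

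Several members had more than 1 transcript in the tables. Rpl19, a protein of the large subunit, had 1099 FPKM of its main transcript in IL-33 4 h, 1258 in IL-4 4 h, 1142 in untreated 4 h, 1127 in IL-33 1 h, 1057 in IL-4 1 h and 1130.3 in untreated 1 h cells. Its second transcript had 153 FPKM in IL-33 4 h, 76.8 in IL-4 4 h, 137 in untreated 4 h, 177 in IL-33 1 h, 161 in IL-4 1 h and 128 in untreated 1 h cells, so that IL-4 4 h was the lowest library for the second and the highest for the main transcript. The authors' deposited table marks 3 members as changed: Rpl19 with IL-4 at 1 h (log2 fold change -0.05) and 4 h (0.06), Rpl21 with IL-4 at 4 h (0.16), and Rps24 with IL-4 at 1 h (-0.00) and 4 h (0.18) and with IL-33 at 1 h (0.04). The authors' deposited table marks no member with IL-33 at 4 h.

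The other genes of the translation machinery did not all share the members' values with IL-33 at 4 h. Of 22 other known 5'TOP genes, 19 were below 0 with a median of -0.15, beside 53.5% of all genes below 0. None passed the rule of size in either direction, beside 4.14% of all genes higher and 1.39% lower. Vim, the intermediate filament vimentin (-0.49), and Hnrnpa1, a splicing factor (-0.33), were lowest, and Tpt1 (0.09) and Btf3 (0.02) highest. Of 50 translation factors, 10 of which are also in the 5'TOP list, 31 were above 0 with a median of 0.06. Of all 10813 genes compared, 5024 were above 0. None of the translation factors passed the rule. Eif5a, which relieves stalled ribosomes (0.72), and Eif5b, which joins the subunits (0.51), were highest, and Eef2k, the kinase that inhibits elongation (-0.64), and Pabpc4 (-0.47) lowest.

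Ribosome biogenesis factors, which process ribosomal RNA and assemble the subunits, had a median of 0.18 with IL-4 at 4 h. Of these, 63 of 66 were above 0, beside 6130 of all 10843 genes compared. Their median was 0.07 with IL-33 at 4 h, with 43 of 66 above 0, beside 5024 of all 10813 genes compared. None passed the rule of size in either comparison. Of all genes, 0.646% were higher and 0.35% lower by this rule with IL-4, and 4.14% higher and 1.39% lower with IL-33. With IL-4 at 4 h the highest were Rrs1 (0.60), a factor of large subunit assembly, and Ppan (0.51), and the lowest Utp14a (-0.06) and Imp3 (-0.06), both of small subunit processing. With IL-33 at 4 h, Rrs1 (0.46) and Rcl1 (0.45) were highest and Utp14a (-0.40) and Npm3 (-0.33) lowest. The 13 RNA polymerase I genes compared, which make ribosomal RNA, had medians of -0.03 with IL-33 and 0.02 with IL-4 at 4 h, and their activator Ubtf changed by 0.39 with IL-33 at 4 h. The 76 mitochondrial ribosomal proteins had medians of -0.08 with IL-33 and 0.03 with IL-4 at 4 h, with a range for IL-33 that ran from Mrps35 (-0.60) to Mrpl52 (0.63) among those of at least 5 FPKM. In neither list did a gene pass the rule, beside the same shares of all genes.

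Of 25 regulators of ribosomal protein synthesis, 23 were compared with IL-33 and 24 with IL-4 at 4 h. By the rule of size 1 was higher with IL-33, beside 4.14% of all genes, and 1 with IL-4, beside 0.646%. None was lower, beside 1.39% of all genes with IL-33 and 0.35% with IL-4. The regulator past the rule was Myc with both cytokines, at a low level. Myc, a transcription factor that drives ribosome biogenesis, had 6.01 FPKM in IL-33 4 h and 2.34 in untreated 4 h cells (1.06), and 6.001 FPKM in IL-4 4 h cells (1.07). Picked for their role after the values were seen, Larp1 changed by 0.18 and Mtor by 0.07 with IL-33 at 4 h. Of the near copies outside the name rule, Rps27l, a p53 target gene, had 150.4 FPKM in IL-33 4 h, 153 in IL-4 4 h, 145 in untreated 4 h, 156 in IL-33 1 h, 156 in IL-4 1 h and 142 in untreated 1 h cells. Rpl3l, the muscle form of Rpl3, was at 2.31 to 4.54 FPKM, and Rpl10l was listed at 0 in all 6 libraries.

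**Figure D5:**
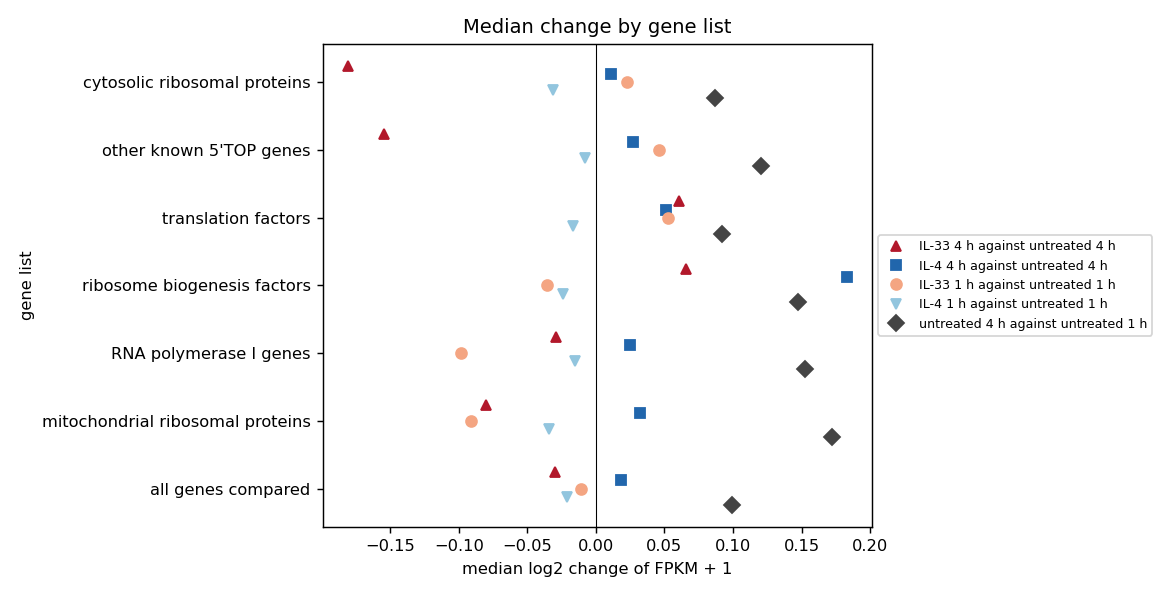
Median log2 change of 7 gene lists in the 5 comparisons, with 1 symbol per comparison. With IL-33 at 4 h the ribosomal proteins (-0.18) and the other known 5'TOP genes (-0.15) lie to the left and the ribosome biogenesis factors (0.07) to the right, and with IL-4 at 4 h the ribosome biogenesis factors lie at 0.18.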

How the data were processed

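The authors deposited FPKM per RefSeq transcript (mm9) in 4 tables, each with a treated column and the control column of that time. The submitters' processing notes name TopHat 1.4.1 and Cuffdiff 1.2.1. Read assignment between copies is not given in the sources used here. A further list holds the authors' log2 fold changes for 1593 genes.

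Transcripts of a symbol were summed. The control values of the IL-33 tables were 0.945 (1 h) and 0.947 (4 h) times those of the IL-4 tables, so changes were taken within a table, and levels from the IL-33 tables were divided by these factors. This moved no member's log2 change by more than 0.00836. Total read counts are unknown, so no counting intervals are given. With 1 library per group no test was run.

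The members and the gene lists were chosen with earlier results of these data known. Genes given in every library or named were the 10 highest and 6 lowest by mean, those past the rule of size, and the 5 largest changes each way per comparison at 5 FPKM or more. Genes named by role, Rpl22, Rpl19, the sequences and the locus sums were added after the values were seen. Of each other list, genes past the rule, or else the 2 largest changes each way, were named. The functions were tested on simulated tables. Alternatives were another pseudocount, no FPKM filter, 1 locus per symbol, fewer members, centring, other control columns and other totals. Sequences come from RefSeq tables (GRCm38.p6) and shared windows from GENCODE M21 transcripts. Python 3.11.15, pandas 2.3.3, numpy 2.4.6 and matplotlib 3.10.9 were used. Some named genes are not reported here.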

Additional observations from a re-analysis of the deposited data

How the results depend on the processing

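The medians, counts and shares were recomputed under each alternative. Of 108 values, 79 stayed within set limits, 28 moved past them and 1 reversed. The limits were 0.1 log2 for a median, 0.5 percentage points for a share and 1.5 times for a count. A sign was read only for medians of at least 0.05 in size, so a smaller median could change sign and still count as kept. With the control of the other time, the median for IL-33 1 h went from 0.023 to -0.069. The locus sums, an alternative chosen after seeing the data, brought the members past the rule of size to 0 in the comparisons of IL-33 1 h, IL-4 1 h, IL-4 4 h and untreated 4 h against 1 h. They changed the sign for Rps27 (0.10 for IL-33 1 h and 0.012 for untreated cells) and Rpl26 (0.14 for IL-4 4 h and -0.015 for untreated cells). With the control of the other time, 2 members each passed in the comparisons of IL-33 1 h, IL-33 4 h and IL-4 4 h, the median was -0.068 for IL-33 4 h and 0.12 for IL-4 4 h, and Rps27 was at 3.29 for IL-33 1 h. A pseudocount of 0.1 gave 2 members for IL-4 1 h. Centring turned the median of untreated 4 h against 1 h to -0.012. In the order IL-33 4 h, IL-4 4 h, untreated 4 h, IL-33 1 h, IL-4 1 h and untreated 1 h, the share of total FPKM was 9.63%, 11.8%, 11.96%, 10.4%, 10.9% and 10.99% with small RNAs out of the total, 9.28%, 11.5%, 11.5%, 10.1%, 10.8% and 10.8% without Prg2, and 9.95%, 11.99%, 12.1%, 10.8%, 11.5% and 11.4% with locus sums. The IL-33 4 h share was the lowest in each. Each value of a single gene got 1 label. Of these values, 800 were labelled as before, 90 moved, 3 newly past and 2 no longer past the rule of size, and 5 reversed. The labels are not full counts of these events. Rpl26 for IL-33 1 h passed the rule with the opposite sign under the control of the other time and was labelled moved. The values of Rps27 and Rpl26 that changed sign with locus sums also fell below the rule, and were labelled reversed. Sign changes of values under 1 log2, such as that of Rps23 for IL-33 1 h with locus sums, were labelled moved or as before. No paired analysis was possible because each group has 1 library. With no replicate, a difference of the size seen with IL-33 at 4 h cannot be set against the spread between libraries. Values of members under 50 FPKM, or of members that share a locus with another symbol, rest on how reads were assigned. Those of abundant members may rest on it too. Of the 71 members with a mean of at least 100 FPKM, 42 shared at least 50% of their 50-base windows with another annotated gene. The other gene could be one at the member's own locus, as Wdr38 is for Rpl35, so the 42 are not all members with copies elsewhere. The cause of the changes under these alternatives was not tested.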
